A study of Mus musculus with 35 samples.

Results

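The tubulin family was followed in mouse liver across 7 styrene concentrations. It comprised the alpha-tubulin genes Tuba1a, Tuba1b, Tuba1c, Tuba4a and Tuba8 and the beta-tubulin genes Tubb2a, Tubb2b, Tubb4b, Tubb5 and Tubb6. Members were chosen by name, with the low signals of Tubb2a and Tuba1a at 120 ppm already seen: every probe set whose platform annotation gave exactly 1 gene, and that gene a member, was read. Of the 10 genes, 8 had such a probe set, 13 probe sets in all, out of 17097 genes measured this way. Tuba4a and Tubb2b were named alone by no probe set and were not analysed here. Where a gene had 2 probe sets, the main one was selected on its higher mean over all 35 arrays.

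Adult male wild-type C57Bl/6 mice breathed air alone or styrene at 1, 5, 10, 20, 40 or 120 ppm, once for 6 hours, and were killed on the following morning. Each concentration and the air group had 5 mice, and each liver was read on its own Affymetrix 3′ expression array. Values are log2 signals, so that a difference of 1 is a 2-fold difference. Hepatocyte markers such as Alb and Ttr summed to between 101700 and 102700 linear signal units at 120 ppm and between 99220 and 103500 in air, so the defining markers of the labelled tissue were present.

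Alpha- and beta-tubulin pair into the heterodimers that polymerise into microtubules. In hepatocytes, microtubules carry secretory vesicles, endosomes and bile-canalicular membrane proteins. Newly made tubulin is folded by prefoldin, the chaperonin CCT and the tubulin cofactors, and cells lower their tubulin mRNAs when free heterodimer accumulates, through TTC5, which recognises the nascent chains.

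The 3 promoters below belong to the 2 members with the deepest decrease, Tubb2a and Tuba1a, and to Tubb4b, whose window held the most CCAAT boxes of the member windows searched. Each runs from 250 bases before to 50 bases after the RefSeq start of the gene (GRCm38.p6), 5′ to 3′ on the gene's strand. Capitals mark CCAAT boxes (CCAAT on either strand) and TATA boxes (TATAAA). All 3 genes lie on the minus strand, Tubb2a at chr13:34077959-34078258, Tuba1a at chr15:98953452-98953751 and Tubb4b at chr2:25224653-25224952.
Tubb2a: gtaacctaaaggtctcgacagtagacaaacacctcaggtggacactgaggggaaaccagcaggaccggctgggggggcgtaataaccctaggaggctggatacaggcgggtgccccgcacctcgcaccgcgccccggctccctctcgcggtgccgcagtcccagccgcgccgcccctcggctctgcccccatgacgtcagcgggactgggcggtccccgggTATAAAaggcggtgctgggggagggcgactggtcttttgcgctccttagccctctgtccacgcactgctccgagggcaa
Tuba1a: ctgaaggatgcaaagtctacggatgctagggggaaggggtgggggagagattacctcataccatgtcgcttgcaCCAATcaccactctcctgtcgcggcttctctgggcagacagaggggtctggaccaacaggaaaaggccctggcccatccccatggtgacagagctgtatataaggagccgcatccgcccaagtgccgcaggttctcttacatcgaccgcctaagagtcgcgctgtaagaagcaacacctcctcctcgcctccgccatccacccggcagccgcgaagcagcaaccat
Tubb4b: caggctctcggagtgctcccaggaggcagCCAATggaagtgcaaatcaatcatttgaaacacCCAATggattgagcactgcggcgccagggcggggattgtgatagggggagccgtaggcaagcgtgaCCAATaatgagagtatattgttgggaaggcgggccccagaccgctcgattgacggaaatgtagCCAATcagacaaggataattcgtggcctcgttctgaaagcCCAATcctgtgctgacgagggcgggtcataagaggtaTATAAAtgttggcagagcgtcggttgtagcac
The Tubb2a window held TATAAA at base -29 and no CCAAT, the Tuba1a window a single CCAAT at -176, and the Tubb4b window 5 CCAAT boxes, at -221, -188, -122, -59 and -19, with TATAAA at 18, counted from the gene start as 0. Among all 32544 promoter windows in the table, 37.4% held CCAAT and 13.6% held TATAAA on either strand. The heat shock element cores GAANNTTC and TTCNNGAA were searched too. The member windows searched were those of all members but Tubb2b and Tubb6, for which none was given, and include that of the unmeasured Tuba4a. TTCNNGAA occurred in the windows of Tubb5 (-236) and Tuba1c (-191), against 8.55% of all windows. GAANNTTC occurred in no member window searched, which with so few windows cannot be told apart from the 7.89% of all. These are matches of letters only. In the RefSeq gene order, Tuba1b, Tuba1a and Tuba1c follow each other on chromosome 15, and Tubb2a and Tubb2b on chromosome 13.

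No tubulin gene passed the test at 1, 5 or 10 ppm, and the first calls came at 20 ppm. At 120 ppm all 8 genes were lower than in air, with a median log2 difference of -1.11, whereas the median over all genes was 0.04. The decrease ranged from 4.45-fold for Tubb2a to 1.38-fold for Tuba8.

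**Figure D1:**
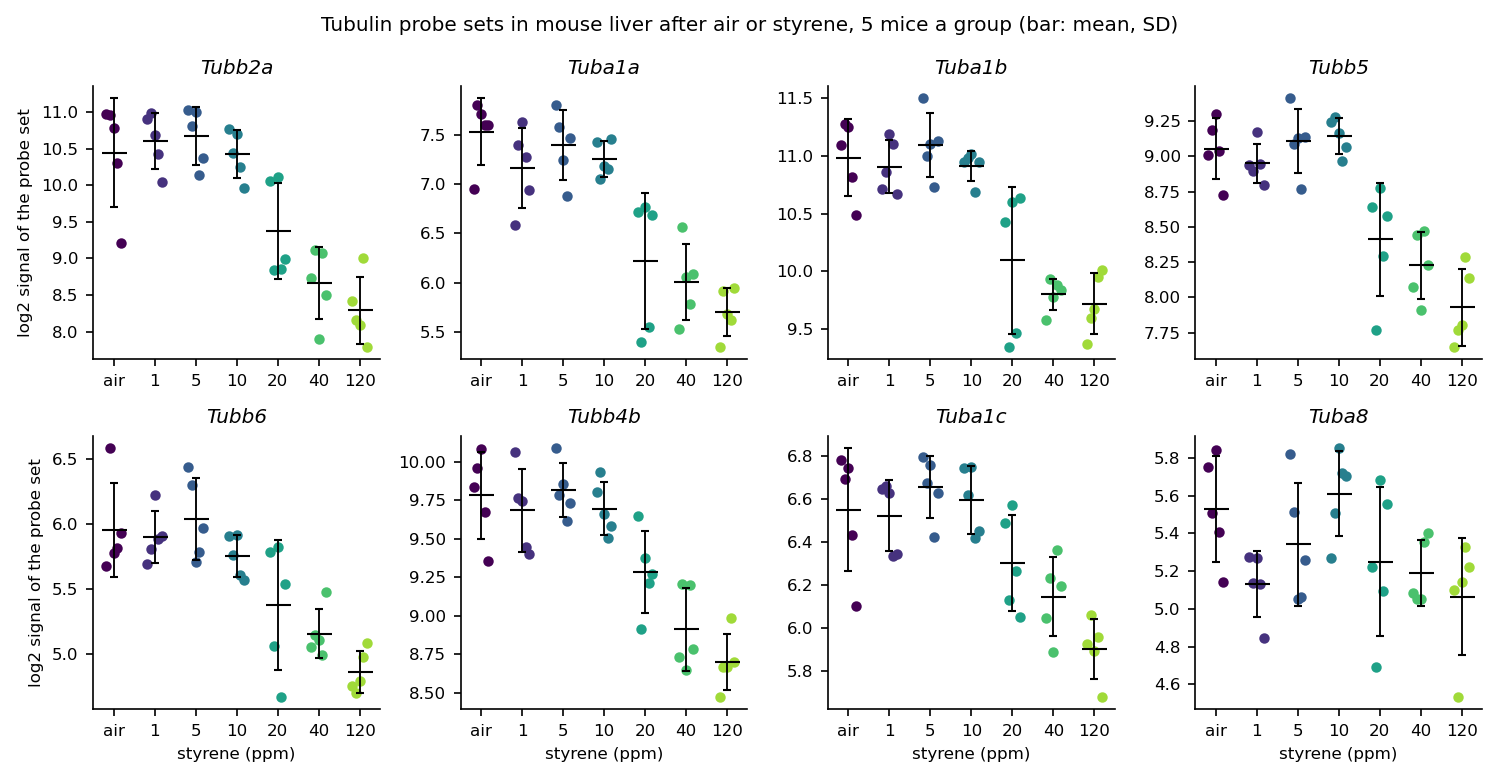
Log2 signal of the main probe set of 8 tubulin genes (vertical axes, own scale for each gene) in air and at 6 styrene concentrations in ppm (horizontal axes); points are single mice, 5 a group, and bars give mean and SD. No gene passed the test at 1, 5 or 10 ppm, and at 120 ppm the 5 mice lie below all air mice for every gene but Tuba8.

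Tubb2a encodes a beta-tubulin best known from the nervous system. In air its signals were 10.98, 10.96, 10.78, 10.31 and 9.21. They were 10.90, 10.99, 10.69, 10.43 and 10.05 at 1 ppm, between 10.15 and 11.03, with a median of 10.82, at 5 ppm, and 10.77, 10.45, 10.71, 10.25 and 9.97 at 10 ppm. These 4 groups overlapped throughout, with air mouse 5 the lowest of their 20 animals. At 20 ppm the signals were 10.06, 8.84, 10.11, 8.86 and 9.0, so that mice 1 and 3 lay beside the lower concentrations and mice 2, 4 and 5 below them. The 40 ppm mice had 8.73, 9.11, 7.90, 9.07 and 8.50, and the 120 ppm mice 8.41, 8.16, 8.09, 9.01 and 7.79. Every mouse of these 2 groups was below the lowest air mouse. The group mean was 8.29 ± 0.46 at 120 ppm and 10.45 ± 0.74 in air (SD, n = 5 each), a difference of -2.15 ± 0.30 (SE), the 6th lowest of 17097 genes. The differences at 40 and 20 ppm were -1.79 and -1.08. A second Tubb2a probe set, much dimmer, differed by -1.65 at 120 ppm. Its group means were 3.98 ± 0.07 at 120 ppm and 5.62 ± 0.62 in air.

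Tuba1a encodes an alpha-tubulin prominent in developing neurons. Its signals in air were 6.95, 7.80, 7.71, 7.60 and 7.60, mouse 1 lying apart from the other four. The 1 ppm mice had 6.59, 7.40, 7.63, 7.27 and 6.94, the 5 ppm mice 7.80, 7.58, 7.25, 6.88 and 7.46, and the 10 ppm mice 7.43, 7.05, 7.19, 7.15 and 7.46. All of these overlapped with air. At 20 ppm the values were 6.71, 5.39, 6.77, 5.55 and 6.68, with mice 2 and 4 more than 1 log2 unit below the other three. The 40 ppm mice had 5.53, 6.56, 6.06, 5.78 and 6.09, and the 120 ppm mice 5.35, 5.91, 5.68, 5.63 and 5.95. No mouse at 20, 40 or 120 ppm reached the lowest air mouse. The mean was 5.70 ± 0.24 at 120 ppm and 7.53 ± 0.34 in air (SD, n = 5 each), 3.55-fold lower and the 9th lowest difference of 17097 genes. No p-value is given for Tubb2a and Tuba1a at 120 and 40 ppm, since their decrease there was already known when the family was chosen.

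Tuba1b, a ubiquitous alpha-tubulin, had 9.38, 9.60, 9.67, 9.96 and 10.01 at 120 ppm and 9.58, 9.93, 9.78, 9.88 and 9.84 at 40 ppm, against 11.09, 11.27, 11.25, 10.81 and 10.49 in air. Neither group overlapped with air, and the 40 ppm mice lay close together, between 9.58 and 9.93. Tuba1b fell by 1.26 at 120 ppm (adjusted p = 6.05e-05, limma over all 45037 probe sets) and by 1.18 at 40 ppm (adjusted p = 0.000164). Tubb5, a beta-tubulin of dividing and resting cells alike, had 7.65, 7.77, 7.81, 8.29 and 8.14 at 120 ppm against 9.01, 9.19, 9.30, 9.04 and 8.73 in air. It fell by 1.12 (adjusted p = 1.08e-05), and its second probe set by 1.00 (adjusted p = 0.000125). Tubb4b, another widely expressed beta-tubulin, had 8.47, 8.67, 8.67, 8.98 and 8.70 at 120 ppm against 9.84, 9.96, 10.08, 9.67 and 9.36 in air. It fell by 1.08 (adjusted p = 1.02e-05) and by 0.87 at 40 ppm (adjusted p = 0.000164). For Tubb5 and Tubb4b too, every mouse at 120 ppm was below every air mouse.

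Tubb6, a further beta-tubulin isotype, had 4.75, 4.70, 4.79, 4.98 and 5.08 at 120 ppm against 5.67, 6.59, 5.78, 5.82 and 5.93 in air, where mouse 2 stood high. It fell by 1.10 (adjusted p = 9.83e-05). Its second probe set, dim in every group, differed by -0.08 (adjusted p = 0.584), so the 2 probe sets of this gene disagreed, and their mean differed by -0.59. Tuba1c, the third gene of the alpha-tubulin cluster, fell by 0.65 at 120 ppm (adjusted p = 0.000424), to 5.90 ± 0.14 against 6.55 ± 0.28 in air (SD, n = 5 each). Its second probe set fell by 0.51 (adjusted p = 0.011). At 40 ppm Tuba1c differed by -0.40 (adjusted p = 0.021), a call that ended without air mouse 1 (adjusted p = 0.0624), 2 (0.0546) or 3 (0.0673) or 40 ppm mouse 3 (0.0696).

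Tuba8, a divergent alpha-tubulin, had the smallest difference. It had 5.10, 4.54, 5.14, 5.33 and 5.22 at 120 ppm against 5.75, 5.51, 5.84, 5.41 and 5.14 in air, and the groups overlapped. Its 1 ppm mice averaged 5.13 ± 0.18 (SD, n = 5), a difference of -0.40 that did not pass (adjusted p = 0.836) but lay below the differences at 20 ppm (-0.28) and 40 ppm (-0.34). Its difference of -0.46 at 120 ppm passed narrowly (adjusted p = 0.0485), and that call ended without any one of air mice 1 to 4 or 120 ppm mice 1 to 3, with adjusted p up to 0.17. Its second probe set did not pass (-0.36, adjusted p = 0.12).

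Counts of members stand beside the share of all 17097 genes called lower in the same comparison, and are not independent of how the family was chosen. None was called lower at 1 ppm (0.00% of genes), 5 ppm (0.0175%) or 10 ppm (0.00%), where adjusted p-values were 0.836 or higher. At 20 ppm 3 of 8 members were called lower, against 0.959% of genes, at 40 ppm 7 of 8, against 6.24%, and at 120 ppm 8 of 8, against 7.99%. No member was called higher at any concentration, where the shares of genes called higher were 0.00% at 1 ppm, 0.0351% at 5 ppm, 0.00% at 10 ppm, 0.497% at 20 ppm, 8.74% at 40 ppm and 11.2% at 120 ppm. Every 20 ppm mouse lay below every air mouse for Tuba1a alone, as for 1.30% of genes. The same held for 6 members at 40 ppm (5.54% of genes) and for 7 at 120 ppm (6.14%). The F test over the 7 groups called 7 of 8, all but Tuba8 (adjusted p = 0.0817), and 21.5% of genes. Centring each array on its median changed that split. Genes called lower and higher then made up 1.29% and 0.392% at 20 ppm. The shares were 10.4% and 5.42% at 40 ppm, with 14.7% and 5.69% at 120 ppm. The array median was higher at 120 ppm than in air (3.60 and 3.50), so centring moved every difference there further down. The 8 of 8 members called lower at 120 ppm with centred arrays are therefore no test of these calls.

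**Figure D2:**
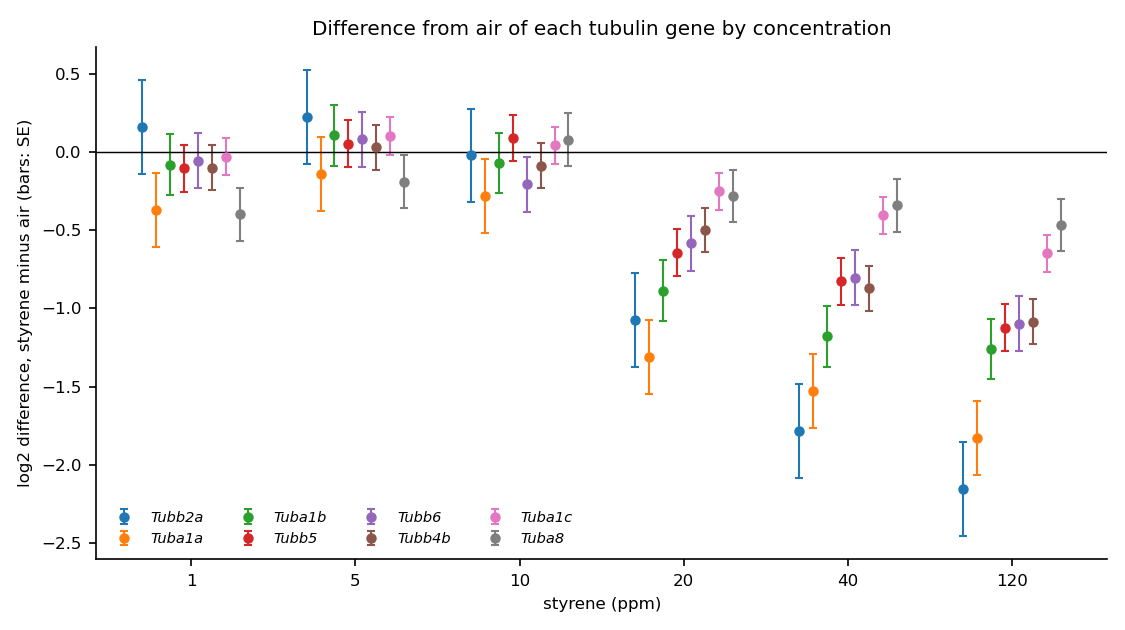
Log2 difference from air (vertical axis) of the 8 tubulin genes at 6 styrene concentrations in ppm (horizontal axis); points are differences of group means and bars their SE. No difference up to 10 ppm passed the test. At 1 ppm all genes but Tubb2a lie below 0, Tuba8 and Tuba1a the furthest. From 20 ppm all lie below 0, and Tubb2a and Tuba1a are lowest there and Tuba1c and Tuba8 nearest to 0.

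The step between 10 and 20 ppm does not use the air mean, although all 35 arrays share the estimate of the spread. With only the 2 groups compared in the fit, 0 of 8 members passed at this step. Tuba1a fell by 1.03 at 20 ppm relative to 10 ppm (adjusted p = 0.0445), and Tubb5 fell by 0.73 (adjusted p = 0.0289). These 2 of 8 members compare with 0.181% of genes. Tuba1b (-0.82, adjusted p = 0.0508), Tubb2a (-1.06, adjusted p = 0.118), Tubb4b (-0.41, adjusted p = 0.239), Tubb6 (-0.38, adjusted p = 0.473), Tuba8 (-0.36, adjusted p = 0.469) and Tuba1c (-0.30, adjusted p = 0.357) did not pass. Tuba1a, Tuba1b and Tubb5 had no overlap between the 2 groups, as did 0.667% of genes. The count was 0 without 10 ppm mouse 1, 3 or 5 or 20 ppm mouse 2 or 4, was 1 without 10 ppm mouse 4, and was 4 without 20 ppm mouse 3. Above 20 ppm no step passed: 0 of 8 members were lower at 40 than at 20 ppm (0.123% of genes) or at 120 than at 40 ppm (0.00%), with Tubb2a at -0.71 (adjusted p = 0.283) and -0.37 (adjusted p = 1).

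Against air at 20 ppm, Tuba1a fell by 1.31 (adjusted p = 0.00717), Tuba1b by 0.89 (adjusted p = 0.0189) and Tubb5 by 0.64 (adjusted p = 0.0272). With only these 2 groups in the fit all 3 calls ended (adjusted p = 0.118 for Tuba1a, 0.207 for Tuba1b and 0.184 for Tubb5). The Tubb2a difference missed the threshold in its main probe set (adjusted p = 0.0727), whereas its second probe set fell by 1.06 (adjusted p = 0.0287). The air mice were also the reference for the decreases of Tuba1a and Tubb2a that were known when the family was chosen. The adjusted p-values of these genes at 20 ppm against air are therefore descriptions in every fit, and no independent test. The 20 ppm mice were uneven. Mice 2 and 4 had the 2 lowest signals of that group for Tubb2a, for Tuba1a, for Tuba1b (9.35 and 9.47, against 10.43, 10.60 and 10.64 in the others), for Tubb5 (7.77 and 8.30), for Tubb6 (5.06 and 4.67), for Tubb4b (8.92 and 9.21) and for Tuba8 (4.69 and 5.10). The call for Tuba1b ended without 20 ppm mouse 2 (adjusted p = 0.112) or 4 (0.0902) or air mouse 2 (0.0598) or 3 (0.0637). That for Tubb5 ended without 20 ppm mouse 2 (adjusted p = 0.145) or 4 (0.0882) or air mouse 2 (0.0764), 3 (0.0917) or 4 (0.0563). Conversely, Tubb2a passed without 20 ppm mouse 1 (adjusted p = 0.0354) or 3 (0.0201) or air mouse 5 (0.0133).

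Members also varied within groups, and not all in the same mice. After group means were removed, Pearson r over the 35 arrays was 0.885 for Tubb2a with Tuba1c and 0.788 for Tubb2a with Tubb4b. It was 0.854 for Tuba1b with Tubb5, 0.745 for Tuba1a with Tuba1b and 0.708 for Tuba1a with Tubb6. Tubb2a with Tuba1a, the 2 members with the deepest decrease, gave 0.242, and Tuba1a with Tuba1c gave 0.182. All points share the same arrays and their normalization, so these values are descriptions. The main probe sets of Tuba1a, Tuba1b, Tuba1c and Tubb2a carry suffixes for probes that can match related sequences. Near-identical genes may therefore share signal, and Tubb2b was named alone by no probe set.

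**Figure D3:**
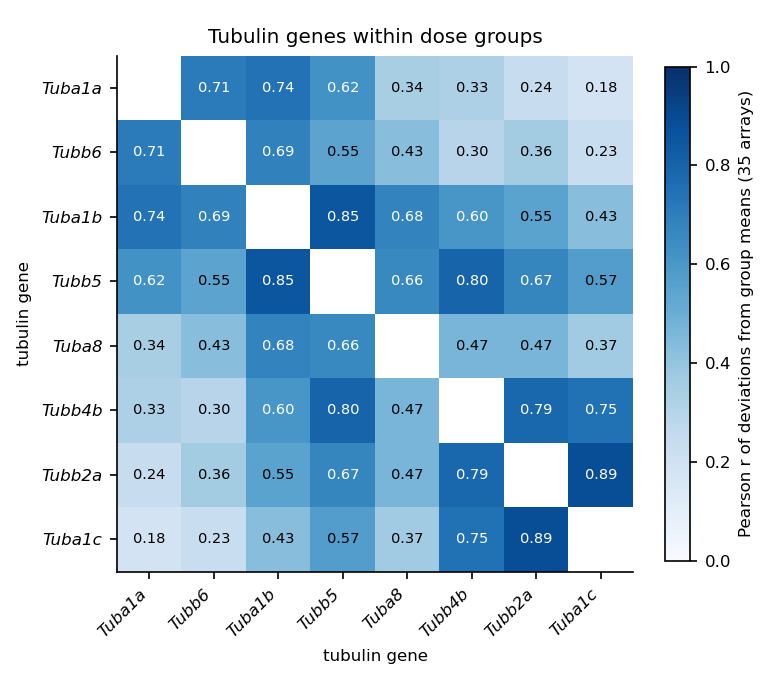
Pearson r between tubulin genes (both axes) over 35 arrays after each group's mean was removed; colour and numbers give r. The highest value joins Tubb2a and Tuba1c (0.885) and the lowest Tuba1a and Tuba1c (0.182).

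Sample titles carry a running number that rises with concentration between groups, 1 to 8 in air and 49 to 56 at 120 ppm, so number and concentration cannot be told apart between groups. Within groups, Tubb2a had a slope of -0.13 ± 0.03 log2 units per title number (SE, adjusted p = 0.0142), and its second probe set one of -0.10 (adjusted p = 0.0146). Tuba1c had a slope of -0.05 ± 0.01 (adjusted p = 0.0372). These 2 of 8 members compare with 1.43% of genes with a falling slope. The other 6 did not pass, Tubb4b coming nearest (-0.04, adjusted p = 0.261), and Tuba1a had 0.02 (adjusted p = 0.888). The Tubb2a call ended when replicate 1 of every group was left out (slope -0.13, adjusted p = 0.192) and when replicate 5 was (slope -0.07, adjusted p = 0.79). The Tuba1c call ended without replicate 1 (adjusted p = 0.196), 4 (0.0929) or 5 (0.816).

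**Figure D4:**
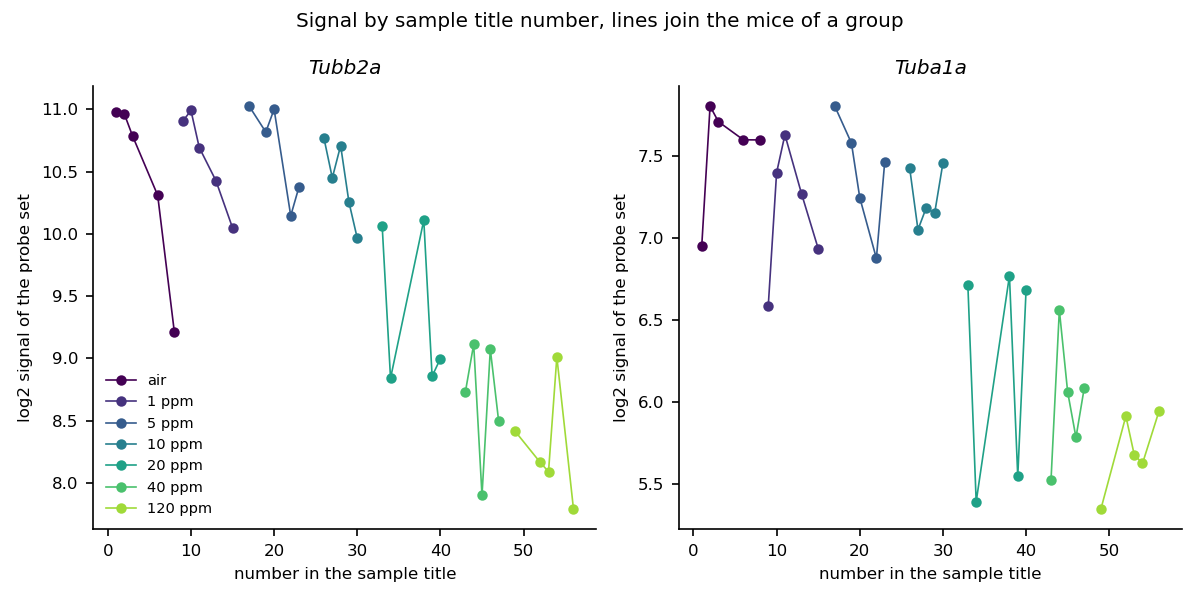
Log2 signal of Tubb2a and Tuba1a (vertical axes) by the number in the sample title (horizontal axes); points are mice and lines join the mice of a group. Tubb2a declines with the number inside the air and 1 ppm groups, with a within-group slope of -0.13, and Tuba1a shows no such decline (0.02).

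Tubulin genes were left out of the ranking for likeness to Tubb2a. Over the 35 arrays Tubb4b (r = 0.951), Tuba1c (0.946) and Tubb5 (0.920) were close to Tubb2a, and the other members had 0.896 or lower. Among 5888 genes that are no tubulin and had a mean of at least 6, the 6 most like Tubb2a were Chka, a choline kinase of phospholipid synthesis (r = 0.957), Spcs2, a signal peptidase subunit (0.942), Elovl3, a fatty acid elongase (0.929), Smagp (0.912), Slc30a10, a manganese exporter (0.907), and Dtx4 (0.906). After group means were removed the values were lower, 0.854 for Chka, 0.778 for Spcs2 and 0.681 for Elovl3. The 3 most opposed were the circadian transcription factor Tef (-0.911), Atxn10 (-0.905) and the deubiquitinase Usp2 (-0.902). Chka averaged 6.53 ± 0.40 at 120 ppm and 8.12 ± 0.52 in air (SD, n = 5 each), and Tef was higher by 1.74 at 120 ppm.

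Most other tubulin genes passed no test. Of the 6 other alpha- and beta-tubulin genes listed, 3 were measured, all dim. Tubb3 differed by 0.27 (adjusted p = 0.069) and Tuba3a by -0.13 (adjusted p = 0.58) at 120 ppm. Tubb4a differed by 0.34 (adjusted p = 0.044), a call that ended under most other settings, among them the omission of air mouse 1, 2, 3 or 5 or 120 ppm mouse 1, 2, 4 or 5, with adjusted p up to 0.195. Of 10 measured genes of the gamma-, delta- and epsilon-tubulins and the gamma ring complex, which nucleates microtubules, 1 was lower and none higher. That gene was Tubg1, the ubiquitous gamma-tubulin, which fell by 0.48 (adjusted p = 0.00441). Tube1 (0.27), Tubgcp4 (0.31), Tubgcp5 (0.34), Nedd1 (0.44), Tubg2 (0.15), Tubgcp3 (0.14), Cdk5rap2 (-0.12), Mzt2 (0.15) and Tubd1 (0.13) did not pass. The share of all genes called higher at 120 ppm was 11.2%, beside the 7.99% called lower.

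The folding machinery showed a smaller decrease in some subunits. Of 16 genes of the chaperonin CCT and prefoldin, 5 were lower at 120 ppm and none higher, with a list median of -0.09. Among all genes, 7.99% were called lower and 11.2% higher at 120 ppm. The CCT subunit gene Cct7 fell by 0.60 (adjusted p = 1.79e-05), averaging 8.35 ± 0.06 at 120 ppm and 8.95 ± 0.13 in air (SD, n = 5 each). Cct3 fell by 0.35 (adjusted p = 0.00805), Cct5 by 0.33 (adjusted p = 0.0185) and the prefoldin subunit gene Pfdn6 by 0.29 (adjusted p = 0.0197). The list count was 3 without air mouse 2. Pfdn6 lost its call without air mouse 2 (adjusted p = 0.0725) or 3 (0.0524). Of 7 folding cofactor genes, Tbcb, which binds alpha-tubulin, fell by 0.39 (adjusted p = 0.0139), and the small GTPase gene Arl2 rose by 0.39 (adjusted p = 0.00427). The Arl2 difference was 0.22 after a second quantile normalization (adjusted p = 0.152) and 0.16 as the mean of its probe sets (adjusted p = 0.095), and neither passed. Of 6 measured genes linked to tubulin mRNA autoregulation, 1 was lower, the deadenylase subunit gene Cnot8 (-0.29, adjusted p = 0.0397). The call for Cnot8 ended without air mouse 1, 2 or 4 or 120 ppm mouse 1, 2 or 4, with adjusted p up to 0.116, and Ttc5 did not pass.

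Among enzymes that modify tubulin, 15 were measured, of which 1 was lower and 3 higher at 120 ppm. This balance turned with scaling, to 2 lower and 1 higher with arrays centred on their median. So did the shares of all genes, from 7.99% lower and 11.2% higher to 14.7% and 5.69%. Atat1, which acetylates alpha-tubulin inside the microtubule, had 4.81, 4.62, 5.05, 4.83 and 5.44 at 120 ppm against 5.92, 5.92, 5.92, 6.00 and 5.80 in air. The groups did not overlap, and Atat1 fell by 0.97 (adjusted p = 3.96e-05) and by 0.93 at 40 ppm. As the mean of all its probe sets it differed by -0.38 at 120 ppm. Ttll5, a polyglutamylase, rose by 0.61 (adjusted p = 0.000501), or by 0.31 as the mean of its probe sets. Svbp, the partner of the detyrosinating vasohibins, rose by 0.33 (adjusted p = 0.0114) but did not pass with centred arrays (adjusted p = 0.0749). Agbl3, a deglutamylase, differed by 0.45 (adjusted p = 0.0468), which ended without air mouse 1, 3 or 5 or 120 ppm mouse 1, 3, 4 or 5. It also ended with centred arrays (adjusted p = 0.132) and after a second quantile normalization (adjusted p = 0.25), and the mean of its probe sets differed by only 0.02 (adjusted p = 0.824).

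Of 27 measured plus end, binding and severing proteins, 2 were lower and 2 higher. The split depended on the processing, with 4 lower when arrays were centred, 4 lower and 1 higher after a second quantile normalization, and 6 higher as means of all probe sets. Of all genes, 7.99% were lower and 11.2% higher at 120 ppm, or 14.7% and 5.69% with centred arrays. Fign, which encodes the microtubule-severing ATPase fidgetin, had 5.82, 5.19, 5.60, 5.07 and 5.19 at 120 ppm against 3.81, 4.14, 3.16, 3.58 and 3.92 in air, with no overlap. It rose by 1.66 (adjusted p = 2.82e-05) at 120 ppm and by 1.35 at 40 ppm (adjusted p = 0.000335), and by 0.88 at 120 ppm as the mean of its probe sets. Fign was dim in air, with a mean of 3.72, and already averaged 4.29 at 1 ppm. The depolymerising kinesin gene Kif2a rose by 0.48 (adjusted p = 0.0142) but missed the threshold without 120 ppm mouse 3 (adjusted p = 0.0537) and after a second quantile normalization (0.30, adjusted p = 0.0989). Map1s, a microtubule-binding protein gene, fell by 0.63 (adjusted p = 0.00267), and Stmn1, whose product sequesters tubulin dimers, by 0.54 (adjusted p = 0.0128), its probe sets together differing by -0.36. Of 25 measured motor genes, 4 were lower and 4 higher. The dynein light chain gene Dynll1 fell by 0.98 (adjusted p = 0.0103) and the dynactin subunit gene Dctn5 by 0.37 (adjusted p = 0.00174). The dynein regulator gene Pafah1b1 rose by 0.56 (adjusted p = 0.00568) and the kinesin gene Kif1b by 0.54 (adjusted p = 0.0089). Pafah1b1 was dim, and its mean was already 4.40 at 5 ppm, against 3.92 in air, 4.19 at 20 ppm and 4.48 at 120 ppm. The lower motor count was 2 without air mouse 2 or 3, and the higher count 2 with centred arrays or a second quantile normalization.

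**Figure D5:**
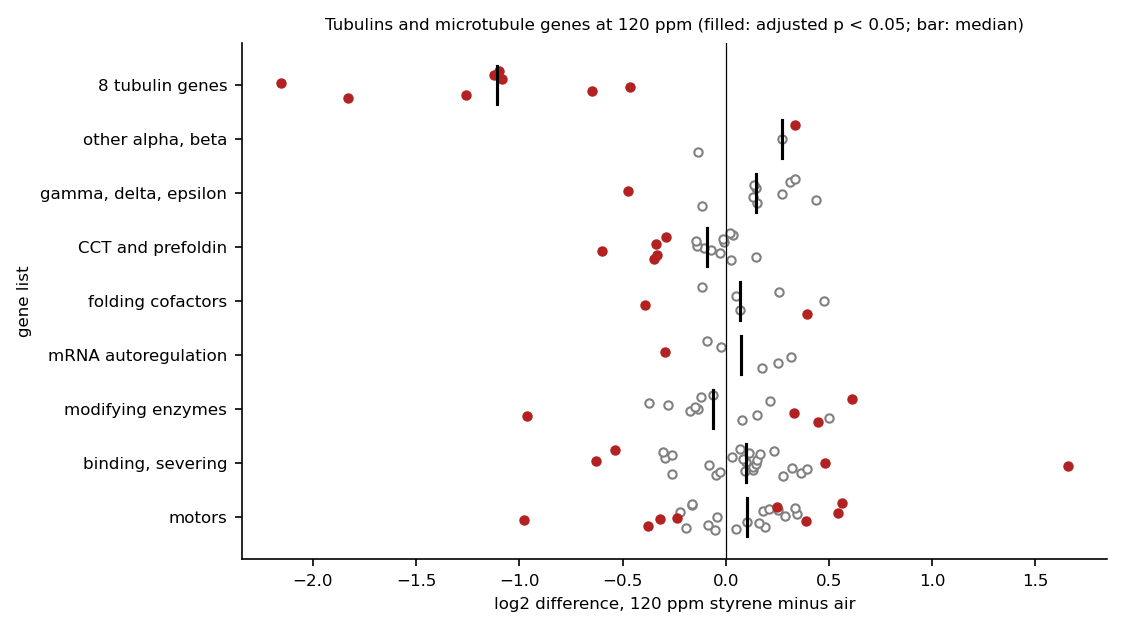
Log2 difference at 120 ppm styrene minus air (horizontal axis) for single genes of 9 tubulin and microtubule lists (vertical axis); filled points passed an adjusted p of 0.05, open points did not, and black bars are list medians. The 8 tubulin genes have a median of -1.11, and the other lists have medians between -0.09 and 0.27.

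Other measures differed between groups too. Of 11 Kupffer cell markers 6 were lower at 120 ppm, with a summed linear signal of 1679 to 2516 at 120 ppm and 2359 to 4308 in air, and in whole liver fewer cells of a type and less RNA per cell cannot be told apart. The count at 120 ppm was 4 without air mouse 5, and no Kupffer marker passed at 20 ppm. The median log2 difference of this list was nonetheless -0.45 at 20 ppm, beside -0.37 at 40 ppm and -0.53 at 120 ppm. Calls in the stellate, endothelial, dividing cell and platelet lists moved by 1 gene with single mice left out. Stellate cell markers had 2 of 11 lower (Col3a1 fell by 1.41, adjusted p = 0.00114), endothelial markers 2 of 10 lower, dividing cell markers 1 of 11 lower and cholangiocyte markers 0 of 5. Hepatocyte markers had 1 of 10 higher and platelet markers 1 of 6 higher. With centred arrays none of either list was higher, and 3 hepatocyte markers were lower. The shares of all genes at 120 ppm were 7.99% lower and 11.2% higher, and 14.7% and 5.69% with centred arrays. The array median was 3.60 at 120 ppm and 3.50 in air (two-sided exact permutation test, adjusted p = 0.019, n = 5 each), and did not pass at 20 ppm (exact, adjusted p = 0.159). The actin 3′ minus 5′ signal, a measure of RNA integrity, averaged 0.478 in air and 0.724, 0.706 and 0.717 in the 20, 40 and 120 ppm groups (same exact test, adjusted p = 0.019 for each, n = 5 each). It also passed at 10 ppm, with a smaller difference, at 0.581 (exact, adjusted p = 0.0476). The same measure from GAPDH was lower than in air at these 4 concentrations and passed at none (exact p of 0.19 or higher). Its SD was 0.242 at 20 ppm and at most 0.050 in every other group. The part of all these measures in the tubulin differences was not tested.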

How the data were processed

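RNA from 35 mouse livers was labelled and hybridised to Affymetrix arrays, 1 array a mouse. The deposited log2 values were made by the authors with RMA in Partek, per the submitters' processing notes, whose versions are not given in the sources used here. Base 2 was inferred from the range of the table, 1.74 to 14.23. RMA scales all arrays to a shared distribution, so each value is relative to its array. The annotation gave 1 gene to 28898 of 45141 probe sets, and 15588 had no symbol. The values were used without further normalization.

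All 45037 non-control probe sets were fitted over all arrays with 7 group means, using limma 3.58.1 (R 4.3.3) and eBayes (28 residual and 5.41 prior degrees of freedom). P-values were adjusted by Benjamini-Hochberg over all probe sets, and the threshold was 0.05. Array measures were compared by exact permutation over 252 divisions of the arrays. Correlations are descriptions. The fit was tested on simulated data. Named genes were all members and, of each other list, those of the first lists in full and at most 4 with the smallest p at 120 ppm among those that passed. To these were added the 6 genes most and 3 least like Tubb2a, with tubulins left out. Other marker genes were chosen after their values were seen. The members and lists were chosen with earlier results of these data known. Alternatives covered scaling, dim probe sets, the prior, array weights, probe sets of a gene, the replicate block, the groups in the fit and leaving out each array. The number of arrays limits the precision. Promoters are from RefSeq.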

Additional observations from a re-analysis of the deposited data

Results flagged for a closer look

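Of 56 sets of 5 mice (8 tubulin genes in 7 groups), 4 held a mouse whose distance to its nearest neighbour was large for the range of its group, and about 1 in 20 sets would be marked by chance. Tuba1a was 6.95 in air mouse 1, where the nearest mouse had 7.60, a gap of 0.758 of the range. Tuba1b was 10.69 in 10 ppm mouse 4, where the nearest had 10.94 (0.786 of the range). Tuba8 was 4.54 in 120 ppm mouse 2, where the nearest had 5.10 (0.71 of the range). Tubb6 was 6.59 in air mouse 2, where the nearest had 5.93 (0.721 of the range). No mouse appears among these more than once.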

How the results depend on the processing

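Under 18 alternatives the counts of tubulin genes called lower at 40 and 120 ppm stayed within 1.5 times of 7 and 8, at 6 to 7 and 7 to 8 with single mice left out. The count at 20 ppm, 3 in the report, was 6 with only probe sets of a mean of at least 5, 6 with array weights, 0 with only the 2 groups compared in the fit, and 1 to 5 with single mice left out (1 without air mouse 2 or 3 or 20 ppm mouse 2 or 4, and 5 without air mouse 5 or 20 ppm mouse 1 or 3). The count at 20 against 10 ppm was 0 with only those groups in the fit and 0 to 4 with single mice left out. The count of title-number slopes, 2 in the report, was 1 with an intensity-dependent prior, 1 with array weights and 0 to 2 with one replicate number left out. The cause was not tested, except that the last fits hold fewer samples. With GAPDH in place of actin, the 3′ minus 5′ difference from air was -0.027 at 10 ppm, -0.117 at 20 ppm, -0.0369 at 40 ppm and -0.0269 at 120 ppm, opposite in sign to actin, and none passed (exact p = 0.31, 0.365, 0.19 and 0.421 in that order). The 20 ppm mice were widely spread in this GAPDH measure, with an SD of 0.242. With the replicate number as a block, the counts were 4 at 20 ppm, 7 at 40 ppm, 8 at 120 ppm and 2 at 20 against 10 ppm, and the F test called 7. Same-numbered mice of different groups had a median correlation of deviations of 0.0268 (-0.394 to 0.374, 105 pairs), against -0.0112 for other numbers. This showed no general pairing by number, but it covers all probe sets together and cannot speak for single genes. Tubb2a at 20 ppm passed with the block (limma, adjusted p = 0.0283), a description only, since the air mice also entered the choice of the family. Of 1439 recomputed gene values, 98 lost their call, 20 gained one and 0 changed sign while called.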
